A study of Mus musculus with 86 samples.

Results

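The data described here are 6 of the 86 samples of the series: 3 RNA-seq libraries of neurites and 3 of soma from CAD cells that kept their TDP-43. They were chosen by cell line, compartment and treatment as the labels give them, and no measured value entered the choice. CAD is a mouse catecholaminergic cell line of brain origin that extends neurites when serum is withdrawn. The study as a whole asked how loss of the RNA-binding protein TDP-43 changes which RNAs reach neurites, and these 6 libraries give the starting state of that experiment, the neurite transcriptome with no perturbation. Both groups carried the genotype labelled TetOff TDP-43 and received no doxycycline over the 48 h of the treatment. Per the study's methods, the endogenous Tardbp alleles of these cells were inactivated with CRISPR and TDP-43 came from 1 integrated, HA-tagged transgene that doxycycline shuts off, so that "wild-type" here means a clonal line with TDP-43 expressed. Cells were differentiated without serum on a porous membrane, neurites grew through the pores, and the soma was scraped from the upper side, which gave 2 fractions of the same cultures.

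Neurons move selected mRNAs into axons and dendrites on motor proteins, or keep them there by local protection from decay, and translate them far from the nucleus. mRNAs for ribosomal proteins and the respiratory chain are known to be enriched in neurites of many neuron types, as are RNAs that depend on the APC protein, a microtubule-end-binding protein. RNAs that act in the nucleus, incompletely spliced RNAs and mRNAs translated at the endoplasmic reticulum have known reasons to be found mainly in the cell body, where the nucleus and most rough endoplasmic reticulum lie.

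The measure used throughout was the localization ratio (LR), the log2 of an RNA's relative level in neurites over that in soma, so that an LR of 1 is a 2-fold higher level in neurites. Neurite libraries held 29097754 to 32895542 estimated counts and soma libraries 29134804 to 30026966. Levels are given below in CPM, counts rescaled to a common library total and adjusted between libraries by the trimmed mean of M values (TMM), whose factors were 0.746 to 0.858 in neurites and 1.24 to 1.25 in soma. Of 12 neuronal markers, 9 reached 1 CPM in a library (the exceptions were Dcx, Nefl and Nefm), with summed levels of 2798 to 2942 CPM in neurites and 2116 to 2193 CPM in soma. Of 12 catecholaminergic markers 7 did, among them Phox2a, Hand2 and Dbh, while Ddc, Slc18a2, Slc6a2, Slc6a3 and Pnmt stayed under 1 CPM. The 6 astrocyte markers summed to at most 2.53 CPM and the 6 microglial markers to at most 1.48 CPM in any library. The 6 oligodendrocyte markers summed to 9.01 to 10.6 CPM in neurites and 5.38 to 6.26 CPM in soma. Tardbp itself stood at 520.5, 487 and 475 CPM in the neurite libraries 1 to 3 and at 525, 567 and 511 CPM in the soma libraries, an LR of -0.11 ± 0.07 (SE, n = 3 per group) that did not pass the test (adjusted p = 0.184). Nothing in the sources states whether the numbered replicates were separate cultures, and the p-values below measure the spread between these libraries. In fractions of this kind, a lower amount of RNA from a cell part and a smaller share of that part in the fraction cannot be told apart.

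A large part of the transcriptome was unevenly spread between the compartments. Of 15825 genes tested with edgeR's quasi-likelihood test at a false discovery rate (FDR, Benjamini-Hochberg) of 0.01, 3767 were higher in neurites (23.8%) and 3207 were higher in soma (20.3%). The 3 neurite levels lay wholly above the 3 soma levels for 5115 genes (32.3%) and wholly below them for 5004 (31.6%). Most differences were small: the median LR was -0.02, the middle 50% of genes lay between -0.45 and 0.37, and the median SE was 0.0973. Scaling by library size alone moved the median LR of all genes by -0.64, and gave 628 genes higher in neurites and 9429 higher in soma, so LRs are statements about an RNA relative to the bulk of RNAs in its own fraction. Over all genes tested, 148 of those called had an LR over 2 and 196 an LR under -2. Among the 8906 genes with a mean of at least 10 CPM, large differences lay on the neurite side: 103 had an LR over 2 and 0 had an LR under -2, and the range ran from -1.88 to 5.73.

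**Figure D1:**
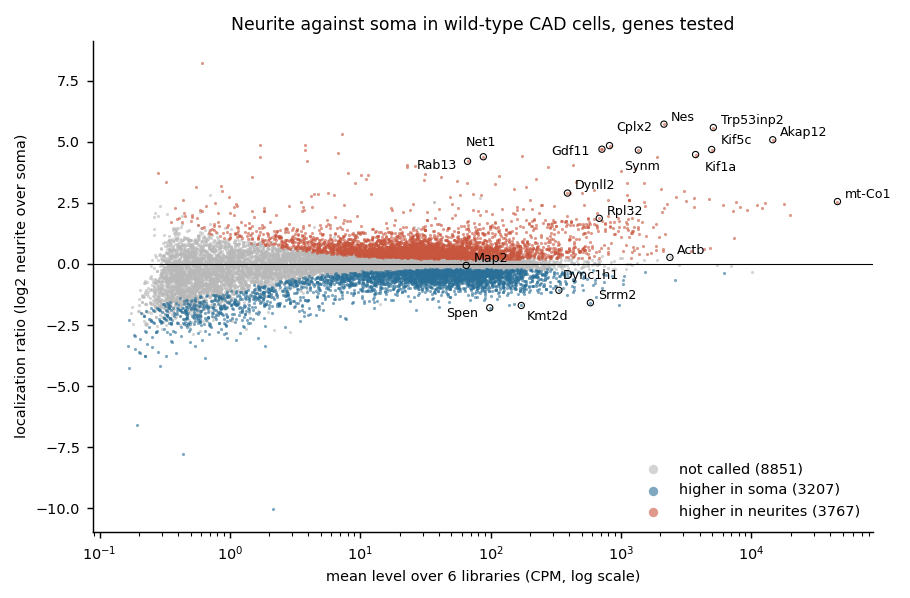
Localization ratio (log2 neurite over soma, vertical) against the mean level over the 6 libraries (CPM, log scale, horizontal) for 15825 genes; points are genes, coloured by the call at an FDR of 0.01. The upper edge of the cloud reaches an LR of 5.73 (Nes) among well-measured genes, while no gene with at least 10 CPM lies under -1.88.

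The highest LRs were ranked among called protein-coding and long noncoding genes with at least 10 CPM and no overlap. Of the 10 highest, the first was Nes (chr3:87971078-87980451, plus strand, GRCm38), which encodes the intermediate filament protein nestin. It stood at 4070.1, 4953 and 3532 CPM in neurites and at 76.4, 75.8 and 84.8 CPM in soma, so that every neurite library lay far above every soma library. Its LR was 5.73 ± 0.15 (SE, n = 3 per group; edgeR, adjusted p = 1.85e-09). Trp53inp2 (chr2:155381059-155389850, plus strand), known as an abundant axonal mRNA of sympathetic neurons, followed with 9436, 11702 and 8854 CPM in neurites against 203, 204 and 216 CPM in soma (LR 5.59 ± 0.14). Akap12 (chr10:4266380-4359470, plus strand), a scaffold of protein kinase A and protein kinase C, had 27670.3, 34224 and 23034 CPM against 833, 826 and 837 CPM (LR 5.09 ± 0.17). This single gene took 2.217, 2.552 and 1.976% of all counts in the neurite libraries and 0.1032, 0.1031 and 0.1049% in the soma libraries.

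Of the 10, 3 encode motor proteins or a motor adaptor. Kif5c (chr2:49619298-49774778, plus strand), a heavy chain of kinesin-1, stood at 8903, 11550.2 and 8151 CPM in neurites and at 362, 381 and 367 CPM in soma (LR 4.69 ± 0.15). Kif1a (chr1:93015464-93101951, minus strand), the kinesin-3 motor of synaptic vesicle precursors, had 6935, 8580.2 and 5899 CPM against 314, 319.7 and 325 CPM (LR 4.48 ± 0.15). Trak2 (chr1:58900449-58973430, minus strand), which couples mitochondria to kinesin and dynein, had 1292, 1580.2 and 1171 CPM against 53.2, 51.3 and 50.7 CPM (LR 4.70 ± 0.12). In all 3 the lowest neurite level was more than the highest soma level. The remaining members were Cplx2, a complexin that binds the SNARE complex of synaptic vesicles (LR 4.85 ± 0.14), Gdf11, a secreted TGF-beta family ligand (4.70 ± 0.12), Synm, the intermediate filament protein synemin (4.67 ± 0.14), and Cdc42bpg, a kinase of the Cdc42 effector family MRCK (4.43 ± 0.10). Neurite replicate 2 held the highest neurite level of each of the 10 genes.

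**Figure D2:**
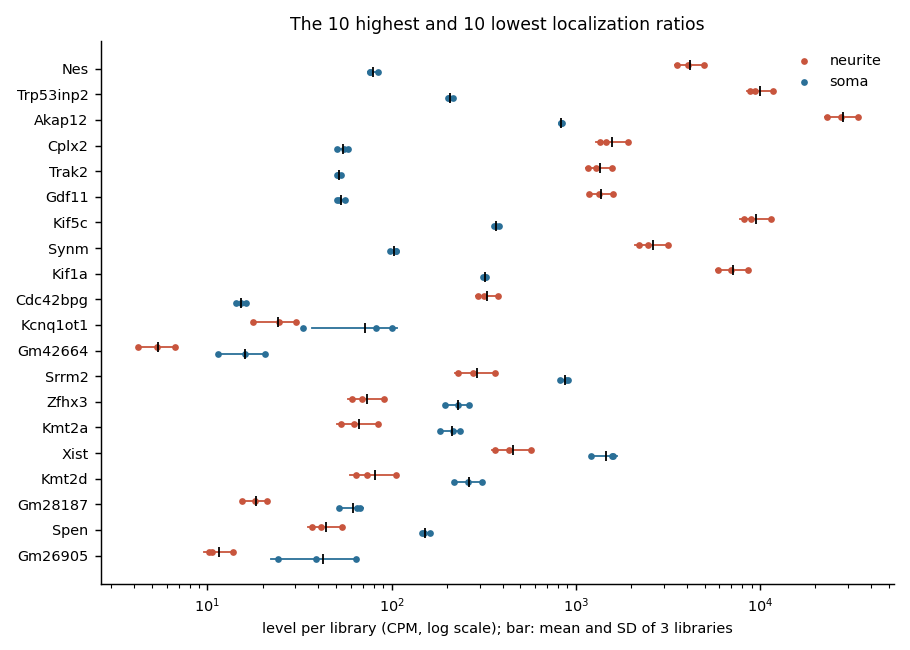
Levels (CPM, log scale) in each neurite and soma library of the 10 genes with the highest LR (upper rows) and the 10 with the lowest (lower rows). They were ranked among called protein-coding and long noncoding genes with at least 10 CPM and no overlap. Each point is 1 library, 3 per compartment, with the mean as a tick and the SD as a line. The compartments lie further apart for Cdc42bpg (means of 329 and 15.2 CPM) and every row above it than for any of the 10 lowest genes.

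The kinesins spanned a wide range. Of 35 tested, 12 were higher in neurites (34.3%, against 23.8% of all genes) and 3 in soma (8.57%, against 20.3%), with a median LR of 0.37. Beside Kif5c and Kif1a, Kif5b had 3362, 4419 and 3100.1 CPM in neurites and 175, 177 and 171 CPM in soma (LR 4.38 ± 0.14). The other members of the kinesin-1 and kinesin-3 heavy chain families with large values, picked out after their values were seen, were Kif1b (LR 2.74), Kif5a (2.40) and Kif1c (1.43). The light chains of kinesin-1, also picked out in this way, stood at LRs of 2.85 for Klc4, 2.43 for Klc1 and 1.53 for Klc2. In contrast, Kif3a had an LR of 0.27, and Kif3b (-0.01), Kif3c (-0.15) and Kif2a (-0.16) were not called. Kif7 (-0.57), Kif24 (-0.65, a call lost in 5 of the 6 fits without 1 library) and the kinesin-3 Kif13b (-0.47) were higher in soma, and the kinesin-3 members Kif13a (-0.19) and Kif16b (0.03) were not called.

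RNAs known to depend on APC for their place in cell protrusions formed a list of 20, of which 19 passed the filter on low counts. Of these, 13 were higher in neurites, 3 were higher in soma and the median LR was 1.43, against -0.02 over all genes tested. Rab13 (chr3:90213695-90226385, plus strand), a small GTPase of vesicle transport, stood at 125, 146 and 107 CPM in neurites and at 7.26, 6.7 and 6.53 CPM in soma (LR 4.20 ± 0.12; edgeR, adjusted p = 3.59e-09). Net1 (chr13:3882018-3918220, minus strand), an exchange factor for RhoA, had 155, 202 and 145 CPM against 7.61, 7.89 and 8.42 CPM (LR 4.39 ± 0.13). Dynll2, a light chain of dynein and myosin V, had 703, 734 and 616 CPM against 92.4, 86.8 and 95.1 CPM (LR 2.90 ± 0.08). None of the neurite and soma levels of these 3 RNAs overlapped. Lower in the order were the kinesin Kif1c (LR 1.43 ± 0.10) and the collagen receptor Ddr2 (1.15 ± 0.09), and Ripor1 (-0.37), P4ha2 (-0.39) and Nup188 (-0.50) were the 3 members higher in soma. The spread within the list was wider than in any list of translation or mitochondrial genes.

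Stretches made only of guanine and adenine in the 3′ UTR are known to act in the localization of several of these RNAs. The longest such run was read from the most abundant transcript of each gene (GENCODE M21, GRCm38). Genes were kept where this transcript was coding, had a complete annotated end and had a 3′ UTR of at least 50 bases. This transcript filter kept 12311 of the 13244 protein-coding genes tested. The windows below are shown because they belong to RNAs with LRs from 3.07 to 4.85. Each has 30 bases, 5′ to 3′ in the sense of the RNA and with T for U, starts 3 bases before the run, and gives the bases of the run that lie in the window in capitals. Their places are chr3:90225784-90225813 on the plus strand for Rab13, chr13:3883038-3883067 minus for Net1, chr1:58902764-58902793 minus for Trak2, chr13:54379935-54379964 plus for Cplx2, chr1:52788905-52788934 minus for Inpp1, chr15:83154127-83154156 minus for Cyb5r3, and chr8:105281064-105281093 plus for Nol3.
Rab13: tttGAGAAGAGGAAAGGAAGAAGAAAtgaa
Net1: gatAGGGAAGGGAAGGGAAGAGAAGAGAAG
Trak2: tttAAGAGGGAAAAAGGGGtaaattcgaat
Cplx2: cttGAAAAAGGAAGGAGGAGGAGGAGGAGG
Inpp1: ggtAGAAAGAAAGAAAGAAGGAAAGAAAAG
Cyb5r3: gacAGGAGAGAGAGAGAGGAGAGAGAAGAG
Nol3: tttGAAAGAAAAGAAGGAAGGAAGGAAGGA
The whole runs were 264 bases long in Cplx2, 243 in Nol3, 143 in Inpp1, 106 in Cyb5r3, 29 in Net1, 23 in Rab13 and 16 in Trak2. Inpp1, Cyb5r3 and Nol3 were chosen for display after their runs and values were seen, and their LRs were 4.04, 3.88 and 3.07.

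Runs of at least 20 bases of only G or A on the sense strand were found in the 3′ UTR of 27 of the 85 protein-coding genes with an LR over 2 (31.8%), against 1428 of all 12311 protein-coding genes examined (11.6%). The share was 7.88% at LRs of 0 to 1 and 14.9% at LRs of -1 to 0. It was also high, 23.6%, in the 449 genes with an LR under -1, whose 3′ UTRs had a median of 2121 bases against 1066 over all genes. Longer 3′ UTRs hold such runs more often, and the comparison was therefore repeated within classes of length. In 3′ UTRs of 1000 to 3000 bases, 13 of 38 genes with an LR over 2 had a run (34.2%), against 13.6% of all genes and 19.5% of genes with an LR under -1 in that class. In 3′ UTRs of 3000 bases or more, the shares were 11 of 20 (55%), 32.4% and 43%. Runs of at least 20 pyrimidines were counted in the same way. They were found in 23.5% of the genes with an LR over 2, 15.8% of all genes and 30.5% of genes with an LR under -1. Within 3′ UTRs of 1000 to 3000 bases, these shares were 28.9, 19.4 and 27.3%. Within 3′ UTRs of 3000 bases or more, they were 40, 41.6 and 49.7%. The highest LRs were not tied to such runs: the longest run was 8 bases in Nes, 9 in Akap12 and 12 in Kif5c. A run of these letters is a description of the sequence and not a site.

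Ribosomal protein mRNAs lay on the neurite side almost without exception. All 48 tested mRNAs of the large ribosomal subunit and 32 of 33 of the small subunit were higher in neurites, with median LRs of 1.53 and 1.53 and an SD of the median over the 3 pairs of same-numbered libraries of 0.14 and 0.13. Rps21, of the small subunit, stood at 867, 856 and 901 CPM in neurites and at 254, 204 and 251 CPM in soma (LR 1.89 ± 0.09). Rpl32, of the large subunit, had 1063, 1143 and 998 CPM against 308, 282 and 286 CPM (LR 1.87 ± 0.08). At the other end were Rpl5 with 44, 47.1 and 48 CPM against 35.8, 34.6 and 32.1 CPM (LR 0.44 ± 0.06; with counts scaled for transcript length 0.21 and not called, adjusted p = 0.0295) and Rpl12 (0.70 ± 0.06). Neurite and soma levels of Rps27 overlapped (30.8, 10.7 and 8.69 against 10.2, 12.6 and 5.05 CPM) and it was not called. Ribosomal protein genes share reads with many processed pseudogenes and, for Rps27, with the near-identical Rps27rt, so single values of this family are uncertain. Together the cytosolic ribosomal protein mRNAs made up 5.638, 5.477 and 6.05% of counts in neurites and 3.22, 2.939 and 3.237% in soma.

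The list of elongation factors followed the ribosomal proteins, with 9 of 9 higher in neurites and a median LR of 0.80. Its highest member was Tpt1, which encodes the translationally controlled tumour protein and is not itself an elongation factor. Tpt1 had 1283, 1423 and 1375 CPM in neurites and 425, 408 and 423 CPM in soma (LR 1.70 ± 0.07). Eef1a1, which delivers aminoacyl-tRNA to the ribosome, had 9826, 10179 and 9757 CPM against 4790.1, 4647 and 4882 CPM (LR 1.06 ± 0.09). Initiation factors were more mixed: 39 of 53 were higher in neurites and 5 in soma, from Eif3k at an LR of 1.32 ± 0.06 to the scaffolds Eif4g1 (-0.73 ± 0.07) and Eif4g3 (-0.90). Aminoacyl-tRNA synthetases had 11 of 20 higher in neurites and 1 in soma (median LR 0.24). Factors of poly(A) binding and decay leaned to the soma (median -0.26). Of 25, 7 were higher in neurites (28%, near the 23.8% of all genes) and 12 in soma (48%, against 20.3%). The poly(A)-binding protein Pabpc1 had an LR of 0.50, whereas the exonuclease Xrn1 (-0.90) and the decay kinase Smg1 (-1.14) were higher in soma.

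Many mRNAs of this class begin with a 5′ terminal oligopyrimidine tract, a C followed by a run of C or T that ties their translation to mTOR. A tract was scored from RefSeq start sites (GRCm38.p6) as a C within 5 bases of the start followed by at least 4 pyrimidines on the sense strand. The 30 bases around the start are shown for 4 members whose LRs ran from 0.70 to 1.78, with the tract in capitals. Rps24 is at chr14:24490668-24490697 on the plus strand, Rps6 at chr4:86857348-86857377 on the minus strand, Eef1a1 at chr9:78481705-78481734 on the minus strand and Rpl12 at chr2:32961702-32961731 on the plus strand.
Rps24: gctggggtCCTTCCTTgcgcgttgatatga
Rps6: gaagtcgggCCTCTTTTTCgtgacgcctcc
Eef1a1: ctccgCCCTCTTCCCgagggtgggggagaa
Rpl12: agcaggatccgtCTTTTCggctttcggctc
By this definition 16 of 35 matched large-subunit mRNAs (45.7%) and 14 of 25 matched small-subunit mRNAs (56%) had a tract, against 2443 of 10374 matched protein-coding genes (23.5%). Median LRs lay close together with and without a tract scored in this way. Over all matched genes the median LR was 0.05 with and 0.04 without a tract, among large-subunit mRNAs 1.58 and 1.49, and among small-subunit mRNAs 1.49 and 1.55. Annotated starts may differ from those used in these cells, and a missing tract says only that these letters were not at the annotated start. The comparison therefore cannot decide whether LRs follow the tracts that the RNAs carry in these cells.

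mRNAs for the respiratory chain were higher in neurites whether nuclear or mitochondrial in origin, and the latter by more. Of the nuclear-encoded subunits, 36 of 37 of complex I, 4 of 4 of complex II, 9 of 9 of complex III, 13 of 13 of complex IV with cytochrome c and 15 of 15 of the ATP synthase were higher in neurites, with median LRs of 1.09, 0.61, 1.12, 1.32 and 1.10. Cox6a1, a subunit of complex IV, had 235, 268 and 239 CPM in neurites and 65, 64.4 and 80.1 CPM in soma (LR 1.82 ± 0.09), and the catalytic ATP synthase subunit Atp5a1 had an LR of 0.48 ± 0.06. All 13 mRNAs encoded by the mitochondrial genome were higher in neurites, with a median LR of 2.35 and a range from 1.64 to 2.56. DESeq2 did not call mt-Atp8 (LR 1.77; adjusted p = 0.0337), and edgeR lost it in 3 of the 6 fits without 1 library. mt-Co1, the core subunit of complex IV, stood at 65981, 99296 and 69129.7 CPM in neurites and at 11627, 15149 and 13045 CPM in soma (LR 2.56 ± 0.18). RNAs of the mitochondrial genome took 14.48, 22.26 and 16.66% of counts in neurites and 4.187, 6.279 and 4.929% in soma, and the second library was the highest in both compartments. Mitochondrial ribosomal proteins had 76 of 78 higher in neurites (median 0.63), protein import 20 of 23 (0.63) and the tricarboxylic acid cycle 15 of 17 (0.50), and none of these lists had a member that was higher in soma.

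Lists of cytosolic metabolism and protein turnover had smaller medians. Glycolytic enzymes had 12 of 16 mRNAs higher in neurites and 1 in soma (median LR 0.51), led by Gapdh (1.11). Of 47 proteasome mRNAs 42 were higher in neurites and 0 in soma (median 0.62), and all 8 subunits of the chaperonin CCT were higher in neurites (median 0.59). Ubiquitin and its conjugating enzymes had 22 of 32 higher in neurites and 3 in soma (median 0.40). Cholesterol synthesis had 5 of 22 higher in neurites (22.7%, near the 23.8% of all genes) and 8 in soma (36.4%, against 20.3% of all genes).

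The cytoskeleton was divided by component. Intermediate filament mRNAs were all higher in neurites (5 of 5). Below Nes lay the heavy neurofilament Nefh with 378, 399 and 325 CPM in neurites and 176, 167 and 178 CPM in soma (LR 1.08 ± 0.08), vimentin (Vim, 0.85 ± 0.08), peripherin (Prph, 0.72 ± 0.08) and internexin (Ina, 0.25 ± 0.06, a call lost in 4 of the 6 fits without 1 library). Actin and its nucleation factors had 17 of 26 higher in neurites and 2 in soma (median 0.46), with the G-actin binders Tmsb4x (1.08) and Tmsb10 (1.04) at the top. Actb, whose transport into growth cones is a textbook case of mRNA localization, had 2910.1, 2497 and 2363 CPM against 2215, 2018 and 2213 CPM. Its levels did not overlap, but its LR of 0.27 ± 0.10 did not pass the test (edgeR, adjusted p = 0.0358; it passed with DESeq2, adjusted p = 0.002). Tubulins had 12 of 15 higher in neurites and 0 in soma (median 0.50).

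Microtubule-associated proteins and stathmins had 6 of 24 higher in neurites and 6 in soma (median -0.01). These shares, 25% each, lay near those of all genes (23.8 and 20.3%). Map4 had 831, 926 and 718 CPM in neurites and 352, 346 and 332 CPM in soma (LR 1.26 ± 0.09). Map2, known as a dendritic mRNA, had overlapping levels of 59.2, 70.2 and 61.3 CPM in neurites and 66.6, 74.5 and 57.6 CPM in soma (LR -0.06 ± 0.10, adjusted p = 0.621). Among growth cone proteins, Stmn2 had an LR of 0.90 ± 0.06 and Gap43 of 0.50 ± 0.06. Dynein and dynactin mRNAs had 12 of 17 higher in neurites and 1 in soma. The exception was Dync1h1, the motor heavy chain, with 255, 213 and 175 CPM in neurites and 466, 462 and 429 CPM in soma (LR -1.08 ± 0.11), whereas the intermediate-light chain Dync1li2 (1.75 ± 0.08) and the roadblock chain Dynlrb1 (1.06 ± 0.06) were higher in neurites. Of 51 Rab GTPases, 29 were higher in neurites and 3 in soma (median 0.31). RNA transport granule proteins had 4 of 22 higher in neurites (18.2%, against 23.8% of all genes) and 7 in soma (31.8%, against 20.3%). Their median (-0.03) was close to that of all genes (-0.02).

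mRNAs for membrane and secreted proteins lay mostly on the soma side. Axon guidance receptors and ligands had 0 of 29 higher in neurites and 20 higher in soma (median LR -0.78). Plxna1, a semaphorin co-receptor, had 82.8, 72.7 and 76.8 CPM in neurites and 167, 168 and 174 CPM in soma (LR -1.13 ± 0.06), with no overlap. Voltage-gated channel subunits had 1 of 42 higher in neurites and 25 in soma (median -0.58), among the latter the calcium channels Cacna1c (-1.09) and Cacna1h (-1.11). The 1 exception, the potassium channel Kcna2, was measured at under 1 CPM in every library, and its call was lost in 5 of the 6 fits without 1 library. Integrins had 0 of 19 higher in neurites and 8 in soma (median -0.51), and collagens and laminins 0 of 31 and 14 (median -0.62). Lysosomal proteins had 1 of 26 higher in neurites and 6 in soma (23.1%, near the 20.3% of all genes; median -0.15). Translocon and chaperone mRNAs of the endoplasmic reticulum did not share this direction here, with 1 of 28 higher in soma (median 0.02). Of the 28, 7 were higher in neurites (25%, near the 23.8% of all genes), led by the small translocon subunits Sec61g (1.35) and Sec61b (1.11). In the CAD experiment with a wild-type transgene described below, 14 of these 28 and 19 of 26 lysosomal mRNAs were higher in soma (medians -0.35 and -0.43), against 10.8% of all genes. In N2A cells 17 of 28 and 18 of 26 were (medians -0.40 and -0.48), against 30.2% of all genes.

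Synaptic vesicle and active zone proteins were the most widely spread of the membrane lists (median LR -0.13). Of 26, 6 were higher in neurites (23.1%, near the 23.8% of all genes) and 10 in soma (38.5%, against 20.3% of all genes). Cplx2 was described above. Ppfia3, the active zone scaffold liprin-alpha-3, had 242, 304 and 241 CPM in neurites and 56.6, 53.9 and 57.8 CPM in soma (LR 2.23 ± 0.09). Synaptophysin (Syp) had 252, 271 and 219.7 CPM against 55.9, 58.6 and 64.9 CPM (LR 2.05 ± 0.09). On the soma side lay the priming factor Unc13a (-1.10), Rimbp2 (-0.99) and Erc1 (-0.72).

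The lowest LRs were ranked among called protein-coding and long noncoding genes with at least 10 CPM and no overlap, and other biotypes were left out. The 10 lowest of these encoded large chromatin and nuclear proteins or were noncoding. Spen (chr4:141467890-141538597, minus strand), a transcriptional repressor that binds Xist, had 53.8, 41.4 and 37 CPM in neurites and 161, 149 and 147 CPM in soma (LR -1.79 ± 0.12; edgeR, adjusted p = 5.15e-07). The histone H3 lysine 4 methyltransferase Kmt2d (chr15:98831669-98871204, minus strand) had 105, 73.3 and 64.1 CPM against 310.4, 259 and 218 CPM (LR -1.70 ± 0.17), and its relative Kmt2a had an LR of -1.67 ± 0.15. Srrm2 (chr17:23790532-23824741, plus strand), a scaffold of nuclear speckles, had 365, 277 and 229 CPM against 889.5, 906 and 824 CPM (LR -1.59 ± 0.14). The transcription factor Zfhx3 (-1.64 ± 0.14) completed the protein-coding members. The other 5 of the 10 were Xist, Kcnq1ot1 and 3 transcripts with no name, Gm26905, Gm28187 and Gm42664. The call of Kcnq1ot1 was lost in 3 of the 6 fits without 1 library. Neurite replicate 1 held the highest neurite level of each of the 5 protein-coding genes.

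Chromatin remodellers and histone methyltransferases as a list had 28 of 33 mRNAs higher in soma and 1, Smarca2, higher in neurites (LR 0.43 ± 0.08), with a median LR of -0.96. Most other nuclear lists did not share this direction. RNA polymerase II subunits had 11 of 13 higher in neurites (median 0.75), and 1, the largest subunit Polr2a, higher in soma (147, 149 and 132 CPM against 313, 319 and 314 CPM, LR -1.14 ± 0.06). Spliceosomal core proteins had 16 of 31 higher in neurites and 4 in soma (0.27), hnRNP and SR proteins 16 of 36 and 0 (0.14), Mediator 13 of 29 and 5 (0.17). Nuclear pore proteins had 7 of 27 higher in neurites (25.9%, near the 23.8% of all genes) and 10 in soma (37%, against 20.3% of all genes, median -0.01). DNA replication factors had 20 of 30 higher in neurites and 0 in soma (0.46), and mitotic spindle and kinetochore proteins 22 of 29 and 0 (0.83), led by Nuf2 with 5.11, 4.78 and 5.99 CPM in neurites and 1.96, 1.77 and 2.06 CPM in soma (LR 1.46 ± 0.16). Of 358 Zfp-named zinc finger genes, 26 were higher in neurites and 68 in soma (19.0%, near the share of all genes; median -0.05). Immediate early genes had 2 of 20 higher in each direction (10%, below the 23.8 and 20.3% of all genes). Targets of the integrated stress response had 12 of 16 higher in neurites and 2 in soma (median 0.43).

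Noncoding RNAs known to stay in the nucleus were on the soma side here, with 9 of 15 called there (60%, against 20.3% of all genes) and 0 in neurites. Their median LR was -0.98, and it was -0.79, -1.03 and -0.57 in the 3 library pairs. In the CAD experiment with a wild-type transgene described below, 2 of 14 were higher in soma (median -0.29), against 10.8% of all genes. In N2A cells 12 of 15 were (median -1.63), against 30.2% of all genes. Xist, which coats the inactive X chromosome, had 571, 436 and 365 CPM in neurites and 1594, 1572 and 1207 CPM in soma (LR -1.67 ± 0.16). The paraspeckle RNA Neat1 had 7.08, 4.26 and 5.32 CPM against 27.6, 11.6 and 7.93 CPM (LR -1.50 ± 0.40, adjusted p = 0.00761), a call that was lost with DESeq2 (adjusted p = 0.0185) and in 4 of the 6 fits without 1 library (LR -0.81 without soma replicate 1). Malat1, an abundant RNA of nuclear speckles, spread so widely over the soma libraries (1843, 726 and 423 CPM, against 706, 321 and 379.6 CPM in neurites) that its levels overlapped and it was not called (LR -1.09 ± 0.45, adjusted p = 0.0589). With the replicate number as a block, which sets each neurite library against the soma library of the same number, Malat1 was called (LR -0.91, adjusted p = 0.000605). Without soma replicate 1 its LR was -0.29, and without soma replicate 3 it was -1.43 and called (adjusted p = 0.00866). By biotype, 232 of 692 unconfirmed transcripts (class TEC) were higher in soma and 3 in neurites. Of 82 sense-intronic RNAs, 37 (45.1%) were higher in soma and 0 in neurites, where protein-coding genes had 20.1% in soma and 26.8% in neurites. Both classes had low levels, with medians of 0.61 and 0.62 CPM. Their median LRs were -1.30 and -1.49 here, -0.62 and -0.43 in the CAD experiment with a transgene, and -1.98 and -2.13 in N2A cells. At least 10 counts were reached by 16024 to 17804 genes in soma libraries and by 14505 to 14753 in neurite libraries. lincRNAs had a share in soma close to that of coding genes (112 of 598, 18.7%) and a lower one in neurites (38, 6.35%). Host genes of small nucleolar RNAs differed, with 7 of 13 higher in neurites, among them Gas5 at 383, 410.3 and 368 CPM against 126, 118 and 118 CPM (LR 1.68 ± 0.06), and 2 in soma. Sense-intronic and antisense RNAs share reads with their overlapping genes, since no source states that counting used strand.

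**Figure D3:**
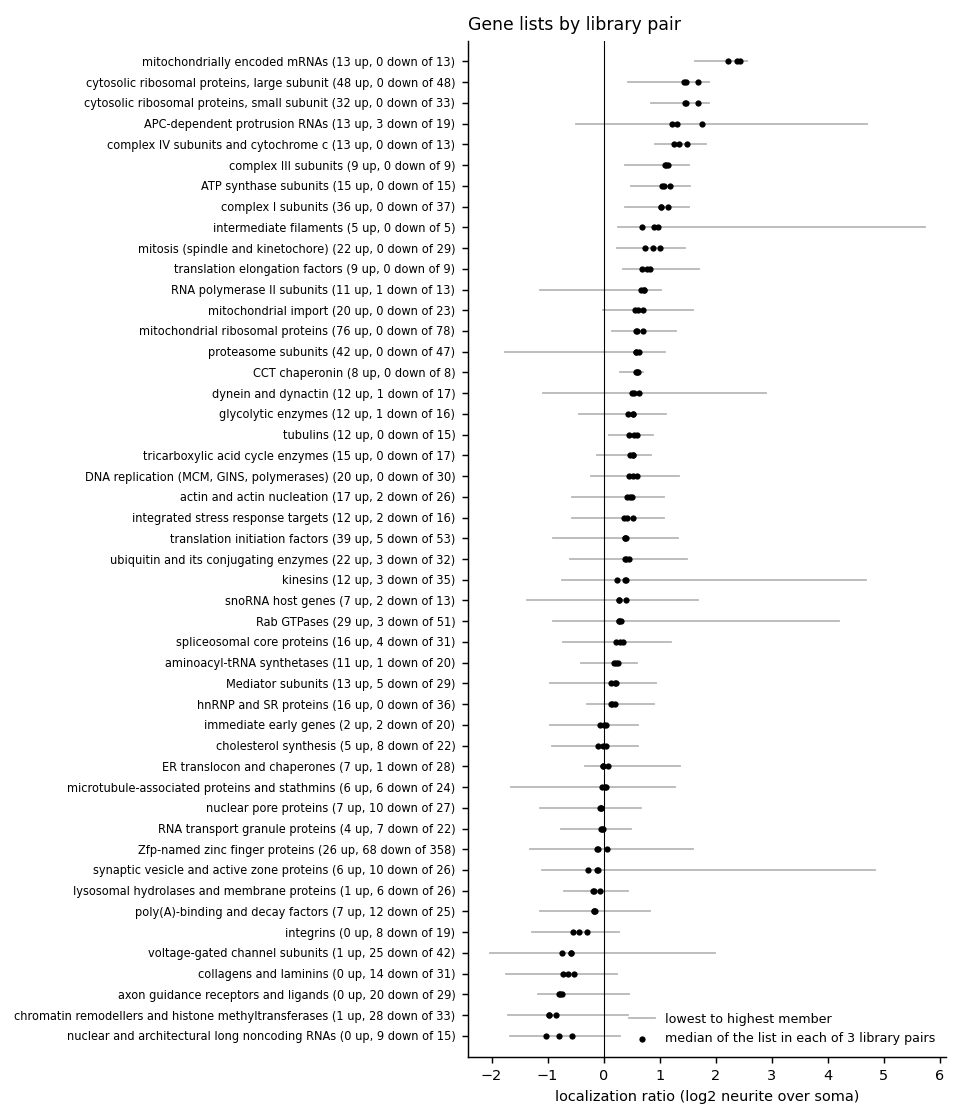
Median LR (log2 neurite over soma, horizontal) of the gene lists with at least 5 tested members (rows, with the number tested), as a point for each of the 3 pairs of same-numbered libraries; the grey line runs from the lowest to the highest member, "up" and "down" count members higher in neurites and in soma, and the vertical line marks 0. Mitochondrially encoded mRNAs (2.35), ribosomal proteins (1.53), APC-dependent RNAs (1.43) and complex IV (1.32) lie at the right end, and nuclear long noncoding RNAs (-0.98), chromatin regulators (-0.96) and axon guidance genes (-0.78) at the left.

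Within several complexes, members with short mRNAs tended to have higher LRs than members with long mRNAs, with exceptions. Among the subunits of RNA polymerase II, the 6740-base Polr2a had an LR of -1.14, and the 646-base Polr2j and the 1650-base Polr2l had LRs of 0.82 and 1.02. In the spliceosome, the 7442-base Prpf8 stood at -0.70 and the 1420-base Snrpd2 at 1.20. In dynein, the 14342-base Dync1h1 stood at -1.08 and the 684-base Dynlrb1 at 1.06. Other members did not keep this order. The dynein chains Dync1li2 (4627 bases) and Dynll2 (2476 bases) had LRs of 1.75 and 2.90. In Mediator, the 4560-base Med28 (0.93) stood level with the 1007-base Med30 (0.92). Across the 41 lists with at least 10 members that passed the transcript filter, 39 had a negative rank correlation of LR with transcript length, with a median of -0.54. It was -0.86 for 26 actin and nucleation factors, -0.79 for 27 Mediator subunits and -0.74 for 30 spliceosomal proteins. The 2 exceptions were tubulins (0.06, 15 members) and APC-dependent RNAs (0.24, 19 members). These correlations run over genes, which are not independent, and carry no test.

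The same relation held over the whole coding transcriptome. Over 12311 protein-coding genes the rank correlation of LR with transcript length was -0.62, with coding length -0.54, with 3′ UTR length -0.37 and with GC content -0.06. In 5 equal classes of length, whose median lengths were 1288, 2168.5, 3041.5, 4192 and 6581.5 bases, the median LR was 0.54, 0.22, 0.04, -0.13 and -0.43. The share higher in neurites fell from 62.6% in the shortest class to 6.01% in the longest, and the share higher in soma rose from 1.42% to 56%. The medians of the 3 library pairs in a class had an SD of at most 0.0259, so the steps between classes were larger than the spread between pairs. With counts scaled for the effective length of the transcripts, the correlation was -0.60. RNA integrity was not given in the sources used here, and its part in this relation was not tested. The RNAs with the highest LRs lay outside the relation: the 85 genes with an LR over 2 had a median length of 4154 bases, and the 441 genes with an LR of 1 to 2 a median of 1028 bases, against 3041 over all genes.

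Lists were therefore set beside other genes of the same length class. The shortest class held 29 large-subunit and 15 small-subunit ribosomal protein mRNAs that passed the transcript filter, of 48 and 33 tested. Their median LRs were 1.52 and 1.54, where the other genes of that class had 0.54. Complex IV (1.34) lay above the other short genes by 0.80, the ATP synthase (1.13) by 0.59 and complex I (1.08) by 0.54. Mitochondrial ribosomal proteins (0.69) and the proteasome (0.72) lay close to them. In the longest class, the other genes had a median of -0.43. The difference from those genes was -0.58 for 29 chromatin regulators and -0.40 for 15 axon guidance genes. It was -0.22 for 26 voltage-gated channel subunits, -0.15 for 17 collagens and laminins and -0.11 for 8 integrins. In the next-longest class, the difference was -0.63 for 8 axon guidance genes and -0.23 for 7 channel subunits. There it was -0.52 for 7 integrins and -0.45 for 8 collagens and laminins, larger than in the longest class.

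**Figure D4:**
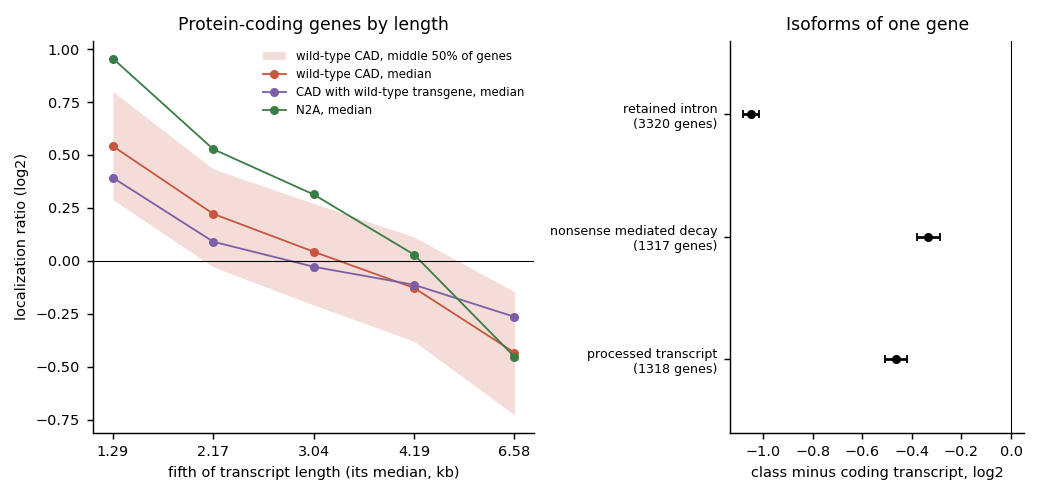
Left, median LR (log2 neurite over soma) of protein-coding genes in 5 classes of transcript length (kb), with the middle 50% of genes shaded for wild-type CAD cells and the medians of the other CAD experiment and of N2A cells as further lines. Right, difference in LR between a transcript class and the coding transcript of the same gene (mean and SD of the medians of 3 library pairs). In wild-type CAD cells the median falls from 0.54 to -0.43 over the classes of length, and retained-intron transcripts lie lower than coding transcripts of the same gene by a median of 1.05.

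Because counts were given per transcript, isoforms of the same gene could be compared, which removes differences between genes. Transcripts annotated as retaining an intron had a lower LR than the coding transcript of their gene in 2933 of 3320 genes (88.3%), with a median difference of -1.05 (SD over the 3 library pairs 0.03). The sign was negative in all 3 pairs for 2397 genes and positive in all 3 for 160. The difference was -1.37 where the retained-intron transcript was the longer of the pair (1112 genes) and -0.87 where it was the shorter (2208 genes). At a stricter minimum of 10 CPM per transcript, 419 genes remained with a median of -0.61, and 77.3% were negative; the difference was then -1.14 where the retained-intron transcript was the longer (161 genes) and -0.20 where it was the shorter (258 genes). Targets of nonsense-mediated decay (median -0.29 over 1317 genes) and processed transcripts without an open reading frame (-0.43 over 1318 genes) lay between at the first minimum, and at 10 CPM their medians were -0.09 (258 genes) and -0.06 (181 genes). Retained-intron transcripts took 3.248, 2.899 and 2.672% of counts in neurites and 3.915, 3.721 and 3.576% in soma.

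Of 8873 genes with at least 2 transcripts tested, 2499 (28.2%) had isoforms whose LRs differed at an FDR of 0.01, and with at least 10 counts in every library 1968 of 6445 (30.5%) did. Without neurite replicate 3 the first count was 1438, and without neurite replicate 2 it was 1613. On simulated counts, with 1 transcript of each changed gene shifted 4-fold, the first filter recovered 78 of 194 changed genes with 19 false calls. The second recovered 136 of 192 with 1. The simulation did not model reads shared between isoforms, so it cannot give the share of false calls in the data. Only genes whose 2 most abundant transcripts differed by at least 1 in LR, with at least 10 CPM each, were named here, besides Cdc42. Among these Ankrd11, a chromatin regulator, gave the lowest p in the gene-wise test over its 7 tested transcripts (edgeR's diffSpliceDGE, adjusted p = 4.92e-20). Its 8455-base coding transcript had 330.7, 314 and 301 CPM in neurites and 467, 449 and 438 CPM in soma (LR -0.52). Its 1874-base coding transcript had 313, 353 and 276 CPM against 34.2, 31.5 and 30.3 CPM (LR 3.29). The short form was about as abundant as the long one in neurites and far less abundant in soma. Rbm25, a splicing regulator, differed between its coding transcript (LR 1.93) and a retained-intron transcript (-0.61), and Rpl3 did likewise (1.58 and -0.61). The 474-base transcript of Rpl22 had an LR of 1.91 and the 2051-base transcript 0.82. For Cdc42, whose 3′ UTR isoforms are known to localize differently in neurons, the 2 transcripts had LRs of 0.72 and 0.35 and the gene was not called (adjusted p = 0.038). Among the lists with over 30 genes tested for isoforms, hnRNP and SR proteins (27 of 32 genes, 84.4%) and large-subunit ribosomal proteins (36 of 45, 80%) had the highest shares. Of the smaller lists, elongation factors and the chaperonin CCT had 7 of 8 each (87.5%).

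The LRs were set beside those of a separate CAD experiment, in which cells with their own Tardbp alleles carried 1 integrated copy of wild-type TDP-43 that was induced with doxycycline for 7 days per the study's methods (3 neurite and 3 soma libraries of 12379715 to 15870647 counts, none shared). Over 13269 genes tested in both, LRs had a rank correlation of 0.79. Of the 3711 genes higher in neurites here and tested there, 3558 (95.9%) had the same sign, 1650 (44.5%) were also called there and 2 were called in the opposite direction, where the background there was 13.1% higher in neurites. Of the 2828 genes higher in soma here, 2710 (95.8%) had the same sign, 1137 (40.2%) were also called and 9 were called in the opposite direction, against a background of 10.8%. Among the 10 highest RNAs, LRs there were 5.20 for Nes, 5.18 for Trp53inp2, 5.01 for Kif5c and 4.91 for Trak2. Of 97 genes with an LR over 2 and at least 10 CPM here, 95 had an LR over 1 there, with medians of 2.74 here and 2.50 there. Some features did not carry over: Dync1h1 had an LR of 0.65 there, Neat1 of -0.24 without a call, and mitotic genes a median of 0.18 with 3 of 29 called. The experiments differed in line, transgene, doxycycline treatment and depth, which cannot be told apart.

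N2A, a mouse neuroblastoma line with the same TetOff TDP-43 design and no doxycycline, allowed a test of what differed between lines (3 neurite and 3 soma libraries of 23148984 to 30709855 counts). Over 14826 genes tested in both lines the rank correlation of LRs was 0.85, but the spread of LRs was smaller in CAD cells, with a distance between quartiles of 0.814 against 1.42 in N2A cells. In the interaction of compartment and line, 1075 of 18668 genes had a higher LR in CAD cells (5.76%) and 2794 a lower one (15.0%). The split turned with the scaling, to 1884 higher and 1208 lower with upper-quartile factors, and was 1684 to 2005 among genes with at least 10 counts in every library. Leaving out 1 replicate of a line gave 609 to 902 higher and 1246 to 2744 lower, both lowest without N2A replicate 2. The genes with the largest positive differences were the top of the CAD list. Nes had an LR of 5.78 ± 0.34 (SD, n = 3) in CAD cells and 0.32 ± 0.15 in N2A cells, a difference of 5.46 ± 0.18 (SE; edgeR, adjusted p = 5.74e-11). Akap12 differed by 5.29 (5.14 ± 0.30 and -0.14 ± 0.09), Synm by 5.28 (4.72 ± 0.28 and -0.55 ± 0.08) and Kif5c by 4.74 (4.74 ± 0.23 and 0.01 ± 0.10). In N2A cells these 4 RNAs lay near an even spread between compartments or slightly on the soma side.

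**Figure D5:**
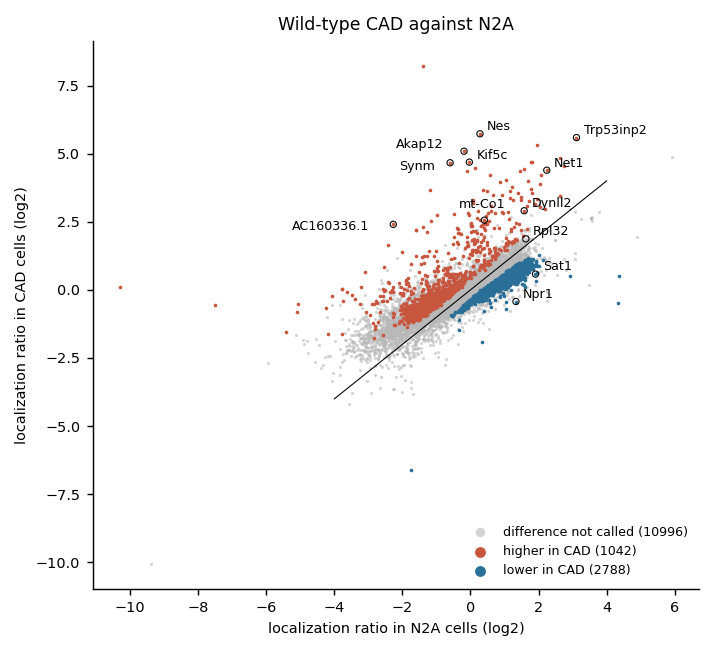
LR (log2 neurite over soma) of 14826 genes in wild-type CAD cells (vertical) against wild-type N2A cells (horizontal); points are genes, coloured by the test of the difference at an FDR of 0.01. Nes, Akap12, Synm and Kif5c stand at LRs over 4 in CAD cells and between -1 and 1 in N2A cells.

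Other top RNAs of CAD cells were also neurite-enriched in N2A cells, though by less: Trp53inp2 had an LR of 3.11 there, Cplx2 of 2.63, Net1 of 2.24 and Rab13 of 2.06. Of 19 APC-dependent RNAs in the test between lines, 11 had a higher LR in CAD cells and 0 a lower one, against 5.76% and 15.0% of all genes. Of the 49 lists, the mitochondrially encoded mRNAs had the largest median difference between the lines (2.03). In N2A cells, where edgeR called 33.7% of genes higher in neurites and 30.2% higher in soma, 0 of 13 were called in either direction (median LR 0.34) and 2, mt-Co1 and mt-Cytb, had an unadjusted p under 0.05 (adjusted p = 0.028 and 0.0364). In the test between lines, 11 of 13 had a higher LR in CAD cells. The opposite held for proteasome subunits, with medians of 0.62 in CAD and 1.19 in N2A cells and 36 of 47 members lower in CAD cells against 0 higher. Actin and nucleation factors had 21 of 26 lower and 0 higher, and mitochondrial ribosomal proteins 34 of 78 lower and 1 higher. This direction was not particular to these lists. The whole shortest length class, which holds 30 of the proteasome mRNAs, had medians of 0.54 in CAD and 0.96 in N2A cells. For axon guidance genes, the medians were -0.78 in CAD and -1.32 in N2A cells, and 16 members had a higher LR in CAD cells, that is, less soma-sided. Ribosomal proteins stood closer together, at 1.53 in CAD cells and at 1.37 and 1.36 in N2A cells for the large and small subunit.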

How the data were processed

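RNA-seq was analysed for wild-type CAD neurites and soma (3 libraries each), with 6 libraries of wild-type N2A cells and 6 of CAD cells with a wild-type TDP-43 transgene for comparison. Per the labels, libraries were made with a Kapa RNA HyperPrep kit, which the study's methods name as its mRNA version. The authors trimmed reads with cutadapt and quantified them with Salmon against mm10, and the deposited files hold an estimated count and a TPM for each transcript; tool versions are not given in the sources used here, and the study's methods name Gencode version 17. TPM entered only the length-scaled alternative. Estimated counts were summed here to genes with GENCODE M21, another release, and rounded (R 4.3.3, Python 3.11.15). The files of the transgene experiment list 133618 transcripts and the others 135181, of which 223 and 229 had no gene in that annotation (at most 0.1294% of counts).

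edgeR 4.0.16 (quasi-likelihood test, TMM factors, filterByExpr, Benjamini-Hochberg) gave LRs with SE and calls at an FDR of 0.01, with an interaction term for CAD against N2A and diffSpliceDGE for isoforms. DESeq2 1.42.0 was an alternative, beside other scalings, filters, thresholds and left-out libraries. On simulated counts the first test recovered 58 of 66 genes changed 4-fold, 38 of 67 changed 2-fold and 45 of 64 changed 1.5-fold, with 4 false calls. LRs per pair of same-numbered libraries and isoform differences used a pseudocount of 0.1 CPM. Same-numbered soma and neurite libraries deviated together (r = 0.524, 0.370 and 0.455 over 10366 genes, with differently numbered pairs at -0.397 to -0.0721). The numbers were therefore taken to pair them where values are given per library pair. The main tests of genes, isoforms and lines had no replicate block and did not use this pairing. Fits with the block were an alternative. Genes named by LR were the 10 highest and 10 lowest among called protein-coding and long noncoding genes with at least 10 CPM and no overlap. Named too were up to 3 at each end of 49 lists, RNAs known from studies of localization and the 5 largest line differences each way. For isoforms, Cdc42 and the 5 genes with the lowest p were named. These 5 were taken only from genes that met the minimum LR difference and level given with the isoform results. That p belongs to the gene and not to a pair of transcripts. The comparison, the lists and the tests were chosen with earlier results of these data known. Intervals and errors cover these libraries only. Some genes that the rule names are not reported here.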

Additional observations from a re-analysis of the deposited data

Results flagged for a closer look

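The difference in LR between CAD and N2A cells was tested by the interaction of compartment and line, and 10 genes stood out, the 5 with the largest difference in each direction among genes with at least 10 CPM in each line and with LRs that did not overlap. Higher in CAD cells were Nes (by 5.46), Akap12 (5.29), Synm (5.28), Kif5c (4.74) and the long intergenic RNA AC160336.1 (4.69, with 2.50 ± 0.27 in CAD and -2.14 ± 0.66 in N2A cells, SD, n = 3).

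Lower in CAD cells were Npr1, the receptor of atrial natriuretic peptide (difference -1.74, with LRs of -0.36 ± 0.27 and 1.38 ± 0.30), and Sat1, a polyamine acetyltransferase (-1.31, with 0.64 ± 0.12 and 1.96 ± 0.20). The others were the stathmin Stmn4 (-1.11), the cell cycle inhibitor Cdkn1a (-1.10) and the mitochondrial ribosomal protein Mrpl16 (-1.07). For Npr1, LRs had opposite signs in the lines, and for the other 4 they were positive in both.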

How the results depend on the processing

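Of the LRs of named genes under the alternatives, 4359 kept their direction and side of the threshold, 147 passed it newly, 158 no longer passed it and 1 reversed: Zfp456 stood at -0.19 with length-scaled counts (main 1.60). Where a setting moved the median of all genes by over 0.1 (library size alone -0.64, no filter -0.18), LRs were taken relative to it. Library size alone gave 628 genes higher in neurites and 9429 in soma. Leaving out 1 library gave 3208 to 3759 and 2166 to 3009. Genes with differing isoforms numbered 3881 at an FDR of 0.05 and 1438 to 2536 without 1 library (1438 without neurite replicate 3, 1613 without neurite replicate 2). Genes with a higher LR in CAD than in N2A cells numbered 1881 at an FDR of 0.05, 1684 with at least 10 counts, 1884 with upper-quartile scaling and 609 to 902 without 1 replicate; those with a lower LR 1208 with upper-quartile scaling and 1246 to 2744 without 1 replicate (lowest without N2A replicate 2 for both). All 110 refits of the 10 named line differences kept their call. Of list medians relative to all genes, 507 moved by less than 1 SD between library pairs, 163 by more, and 2 reversed without a filter on low counts, to 0.0963 for synaptic vesicle and 0.0732 for lysosomal proteins. With the replicate block, 4210 genes were higher in neurites and 3736 in soma, 2250 had differing isoforms, and 1430 and 3417 differed between lines; no count moved by over 1.5 times, and of the genes named here the call changed for Malat1 and Dcx. The causes of these shifts were not tested. Dcx, Kcna2 and Meg3 were measured at under 1 CPM in every library, where few counts limit the precision.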

Other observations

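The protein kinase D family, which acts at the trans-Golgi network, was on the neurite side as a whole; it was picked out after its values were seen. Prkd1 stood at 47.7, 58.5 and 42.3 CPM in neurites and at 2.74, 3.54 and 2.85 CPM in soma (LR 4.02 ± 0.14, SE). Prkd2 had 82.4, 95.9 and 74.5 CPM against 12.7, 12.9 and 11.8 CPM (LR 2.75 ± 0.09), and Prkd3 had 12.2, 12.2 and 10.8 CPM against 3.47, 3.24 and 3.29 CPM (LR 1.81 ± 0.10). No neurite level of the 3 mRNAs overlapped a soma level. In the CAD experiment with a wild-type transgene their LRs were 4.15, 2.50 and 2.77, and in N2A cells Prkd2 stood at -0.05.

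Apc, the gene whose protein the APC-dependent RNAs are named for, was neurite-enriched itself, with 2062, 2324 and 1483 CPM in neurites and 274, 294 and 254 CPM in soma (LR 2.83 ± 0.15). Its LR was 1.93 in the CAD experiment with a wild-type transgene and -0.08 in N2A cells. It was named after its values were seen.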
